A study of Homo sapiens with 4 samples.

Results

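The 9 genes described here encode BH3-only proteins, the pro-apoptotic branch of the BCL2 family: BMF, BCL2L11 (BIM), BBC3 (PUMA), PMAIP1 (NOXA), BAD, BID, BIK, BNIP3 and BNIP3L (NIX). They were taken as named members of the family, a choice made with earlier results of these data known, and all 9 are among the 18417 genes with a row on the arrays. Each is represented by the transcript cluster, a set of probes spread over the gene, that names its symbol alone, and each of the 9 has exactly 1 such cluster. RNA was profiled on 4 arrays (Affymetrix Human Gene 1.0 ST), all from MDA-MB-468, an established breast cancer cell line whose endogenous p53 is the contact mutant R273H. In 2 cultures (NS) the cells were transduced with a lentivirus carrying a non-targeting shRNA, and in 2 cultures (p53si-1) with a lentivirus carrying an shRNA against the mutant p53. Both groups therefore share the line, the mutant allele and the lentiviral transduction, and a single shRNA sequence stands for the knockdown. The study states the time after transduction as 48 h in one place and as 72 h in another, and calls the experiments independent.

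BH3-only proteins carry the short BH3 helix and lack the other conserved segments of the family. They act by filling the groove of the anti-apoptotic proteins BCL2, BCL-XL and MCL1, and some of them also engage BAX and BAK1 directly, after which these effectors open the outer mitochondrial membrane and release cytochrome c. Each responds to its own kind of stress, through transcription, phosphorylation, cleavage or release from a binding partner. BMF is held on the actin cytoskeleton by dynein light chain 2 and myosin V motors and is known for its part in anoikis, the death of epithelial cells that lose their attachment. The comparison asks which genes of this branch change in RNA level when the mutant p53 is knocked down.

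A value is a log2 signal after robust multi-array averaging (RMA), so a difference of 1 is a doubling, and a difference is p53si-1 minus NS throughout. Probe sets differ in how brightly they light up, so the level of a gene is set against its own level on the other arrays and not against another gene's level. The arrays were alike in overall level, with medians over all clusters between 5.66 and 5.69, and the median difference over all genes was -0.0089. The typical gene differed by 0.0995 between the 2 NS arrays and by 0.108 between the 2 p53si-1 arrays. The marker genes listed for the line were bright on all 4 arrays. EPCAM lay between 12.01 and 12.25, and the epithelial keratins KRT8, KRT18, KRT19 and KRT7 lay between 11.28 and 12.59. CDH1 and EGFR had NS means of 9.53 and 9.88. No luminal or basal subtype was read from these genes. Of the receptor genes whose absence names a triple-negative line, ESR1 and PGR were dim, with NS means of 4.49 and 3.97, whereas ERBB2 had an NS mean of 7.63, brighter than 65.8% of the gene rows. The p53 transcript is not analysed here.

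BMF was higher in the p53si-1 cells, by 1.64-fold. Its signal was 6.92 and 7.02 in the NS replicates and 7.68 and 7.68 in the p53si-1 replicates. The groups did not overlap, the smallest difference between any p53si-1 and any NS array was 0.66, and the NS replicates were 0.11 apart. The means were 6.97 ± 0.08 (SD, n = 2) and 7.68 ± 0.0028 (SD, n = 2). The difference was 0.71 on the log2 scale with a standard error of 0.08 and a 95% interval from 0.51 to 0.92, or 1.42-fold to 1.89-fold. In limma, fitted across all 18417 genes, the unadjusted p was 0.000131 and the Benjamini-Hochberg adjusted p was 0.059, on the far side of 0.05. Leaving out the dimmest 25% of the genes brought the same difference to an adjusted p of 0.0398, centring the arrays on their medians to 0.0365, and a prior variance that follows the signal to 0.0233. The other 8 alternatives stayed above 0.05, from 0.0508 with quantile normalization to 0.263 without p53si-1 replicate 2. An exact permutation test of 2 arrays against 2 cannot give a two-sided p below 0.333. Each array averages a whole culture, so more BMF RNA in every cell and a larger share of cells with BMF RNA cannot be told apart.

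Among all genes, 21 had a larger increase than BMF and 76 a larger change in either direction, and 40 had a smaller p. Higher by over 1.5-fold were 50 of the 18417 genes, or 0.271%, and lower by over 1.5-fold were 120, or 0.652%. Of the 9 BH3-only genes, 1 passed 1.5-fold upward (BMF) and 0 passed it downward. At an adjusted p under 0.05 in limma, 6 genes rose (0.0326% of all genes) and 14 fell (0.076%), and 0 of the 9 BH3-only genes were among them. At an unadjusted p under 0.05 the limma count was 1 of the 9, BMF, against 2257, or 12.3%, of all genes.

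**Figure D1:**
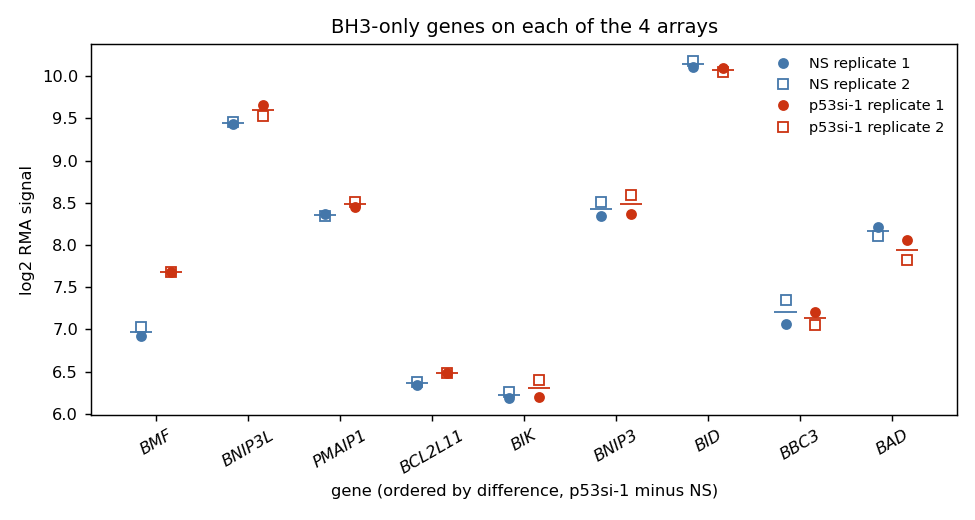
The plot gives the log2 RMA signal (vertical axis) of each of the 9 BH3-only genes (horizontal axis, ordered by their difference) on the 4 arrays, with NS in blue, p53si-1 in red, filled circles for replicate 1, open squares for replicate 2 and horizontal bars for the group means. BMF stands at 6.92 and 7.02 in NS and at 7.68 in both p53si-1 replicates, while the bars of the other genes lie within 0.22 of each other.

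The sequence just upstream of BMF is shown because BMF is the gene with the large difference, and because RefSeq places its transcripts at separate start sites. Each run below is the 250 bases before an annotated start in RefSeq on GRCh38.p14, written 5′ to 3′ on the strand of the gene. Capitals mark matches on either strand to the GC box GGGCGG and the CCAAT box CCAAT, both common elements of housekeeping promoters. The first start has the window chr15:40108880-40109129 on the minus strand, and the second has chr15:40106967-40107216 on the minus strand.
BMF, first start: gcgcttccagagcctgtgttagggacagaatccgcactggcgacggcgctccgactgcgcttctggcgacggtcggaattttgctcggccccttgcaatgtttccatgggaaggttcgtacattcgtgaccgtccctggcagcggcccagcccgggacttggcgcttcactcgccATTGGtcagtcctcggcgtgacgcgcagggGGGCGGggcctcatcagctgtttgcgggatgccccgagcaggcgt
BMF, second start: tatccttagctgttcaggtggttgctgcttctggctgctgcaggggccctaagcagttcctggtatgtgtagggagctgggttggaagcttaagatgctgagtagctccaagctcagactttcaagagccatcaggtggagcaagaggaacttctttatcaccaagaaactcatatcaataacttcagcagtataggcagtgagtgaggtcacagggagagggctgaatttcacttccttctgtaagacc
The first window held 1 CCAAT box, read on the opposite strand and beginning 75 bases before the start, and 1 GC box beginning 45 bases before it. The second window, from a more downstream start, held neither. The array gives 1 value for BMF and does not tell transcripts from these starts apart.

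BCL2L11 encodes BIM, which binds all anti-apoptotic proteins of the family and, like BMF, is tethered to the cytoskeleton, in its case through dynein light chain 1. Its signal was 6.34 and 6.38 in the NS replicates and 6.48 and 6.48 in the p53si-1 replicates. Both p53si-1 arrays lay above both NS arrays, by 0.10 at the closest. The difference of 0.12 (SE 0.08, 95% interval -0.07 to 0.31) had a limma adjusted p of 0.613. BCL2L11 is a known target of the FOXO factors, which AKT keeps out of the nucleus, and its window is shown because it was the only one among these genes to hold the FOXO motif GTAAACA. The window is chr2:111120664-111120913 on the plus strand of GRCh38.p14, with the FOXO motif, GC boxes and the CCAAT box in capitals.
BCL2L11: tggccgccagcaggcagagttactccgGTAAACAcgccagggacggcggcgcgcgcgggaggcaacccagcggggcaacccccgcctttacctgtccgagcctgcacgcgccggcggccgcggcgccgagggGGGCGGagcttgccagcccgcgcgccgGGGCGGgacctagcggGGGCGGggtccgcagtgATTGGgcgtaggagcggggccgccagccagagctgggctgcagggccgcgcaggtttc
The FOXO motif began 223 bases before the start, the 3 GC boxes 118, 91 and 75 bases before it, and the CCAAT box, on the opposite strand, 58 bases before it.

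BBC3 and PMAIP1 are the BH3-only genes classically induced by wild-type p53, whereas the p53 knocked down here is the contact mutant R273H. They code for PUMA, which binds every anti-apoptotic protein, and NOXA, which prefers MCL1. The BBC3 signal was 7.07 and 7.35 in the NS replicates and 7.21 and 7.06 in the p53si-1 replicates. The groups overlapped, and the NS replicates alone were 0.28 apart. Its difference was -0.08 (SE 0.12, 95% interval -0.37 to 0.22, limma adjusted p = 0.851), and without NS replicate 2 it was 0.065, with the opposite sign. The PMAIP1 signal was 8.37 and 8.35 in the NS replicates and 8.45 and 8.51 in the p53si-1 replicates. Both p53si-1 arrays of PMAIP1 were the higher ones, by 0.08 at the closest. Its difference was 0.12 (SE 0.08, 95% interval -0.07 to 0.32, limma adjusted p = 0.608).

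BAD and BID are controlled mainly after translation. BAD is phosphorylated by AKT and other survival kinases and then held by 14-3-3 proteins, and BID is cut by caspase 8 and so links death receptors to mitochondria. The BAD signal was 8.22 and 8.11 in the NS replicates and 8.06 and 7.83 in the p53si-1 replicates. Both p53si-1 arrays were the lower ones, but by 0.05 at the closest, while the p53si-1 replicates were 0.23 apart. The BAD difference of -0.22 (SE 0.11, 95% interval -0.48 to 0.04, limma adjusted p = 0.479) was the largest downward one among the 9 genes. The BID signal was 10.10 and 10.18 in the NS replicates and 10.10 and 10.05 in the p53si-1 replicates. The groups were separated by just 0.0078. The BID difference was -0.07 (SE 0.08, 95% interval -0.27 to 0.13, limma adjusted p = 0.792).

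BIK is a BH3-only protein of the endoplasmic reticulum. Its signal was 6.19 and 6.26 in the NS replicates and 6.20 and 6.40 in the p53si-1 replicates. The groups overlapped, and the p53si-1 replicates were 0.20 apart. The difference was 0.08 (SE 0.10, 95% interval -0.16 to 0.32, limma adjusted p = 0.813), and without p53si-1 replicate 2 it was -0.020.

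BNIP3 and BNIP3L have a weak BH3 segment and serve mainly as mitophagy receptors, which tie damaged or surplus mitochondria to the autophagosome through LC3 and GABARAP proteins. Both are known to be induced by hypoxia. The BNIP3 signal was 8.34 and 8.51 in the NS replicates and 8.37 and 8.59 in the p53si-1 replicates. In both groups replicate 2 was the higher, by 0.17 and 0.22, and the groups overlapped. The BNIP3 difference was 0.06 (SE 0.11, 95% interval -0.21 to 0.33, limma adjusted p = 0.884), and its sign turned without NS replicate 1 (-0.026) and without p53si-1 replicate 2 (-0.050). The BNIP3L signal was 9.43 and 9.46 in the NS replicates and 9.66 and 9.53 in the p53si-1 replicates. Its p53si-1 arrays were both the higher ones, by 0.07 at the closest, with p53si-1 replicates 0.13 apart. The BNIP3L difference was 0.15 (SE 0.09, 95% interval -0.07 to 0.36, limma adjusted p = 0.570), the next largest increase after BMF. The window upstream of BNIP3 is shown for its hypoxia-type motif and its many GC boxes. It is chr10:131981924-131982173 on the minus strand of GRCh38.p14, and capitals mark the CACGTG palindrome, which holds the hypoxia response core ACGTG on each strand, the CCAAT box, and the GC boxes, which all read CCGCCC because they lie on the opposite strand.
BNIP3: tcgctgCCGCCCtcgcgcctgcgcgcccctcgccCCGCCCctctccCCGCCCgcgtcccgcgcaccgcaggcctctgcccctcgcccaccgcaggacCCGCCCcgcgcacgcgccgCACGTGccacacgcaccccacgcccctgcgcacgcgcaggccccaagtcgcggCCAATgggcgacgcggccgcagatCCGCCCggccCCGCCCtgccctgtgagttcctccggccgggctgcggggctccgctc
The ACGTG cores began 134 and 133 bases before the start, the CCAAT box 81 bases before it, and the 6 GC boxes between 244 and 47 bases before it.

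**Figure D2:**
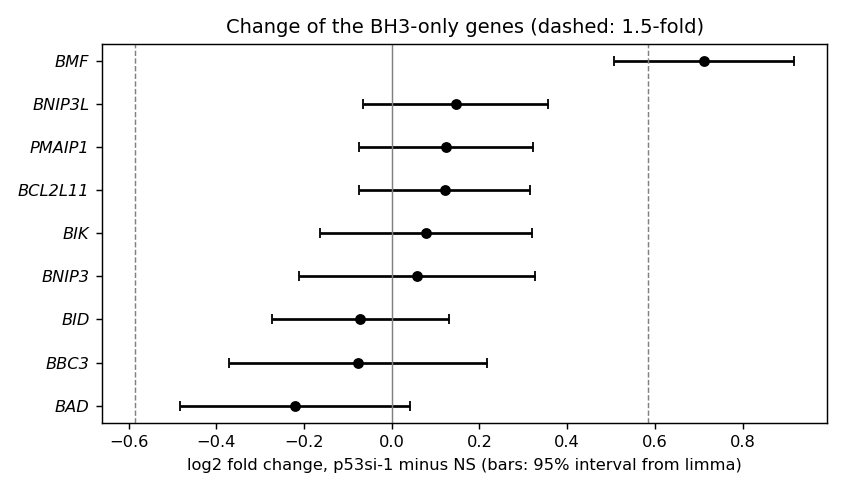
The plot gives the difference between the group means (horizontal axis, log2 fold change, p53si-1 minus NS) for each BH3-only gene (vertical axis), with bars for the limma 95% interval and dashed lines at 1.5-fold in each direction. BMF lies past the upper 1.5-fold line with an interval from 0.51 to 0.92, and the intervals of the other 8 genes lie wholly between the dashed lines and cross 0.

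The other 8 genes had differences from -0.22 to 0.15, that is 1.04-fold to 1.17-fold in size, with limma adjusted p-values from 0.479 to 0.884. Their 95% intervals all ended inside 1.5-fold, the widest reaching 1.40-fold lower (BAD) and 1.28-fold higher (BNIP3L). A change beyond these bounds lies outside the intervals, while a smaller one was not detected for these 8 genes and may be present. An interval inside 1.5-fold is common on these arrays, and 91.9% of all genes had one. By mean, 6 of the 9 genes were higher and 3 lower, with a median difference of 0.08 against -0.0089 over all genes. Both p53si-1 arrays lay above both NS arrays for 4 of the 9 (BMF, BCL2L11, PMAIP1 and BNIP3L), where 19.9% of all genes did so, and below them for 2 of the 9 (BAD and BID), where 22.6% of all genes did so. BBC3, BIK and BNIP3 overlapped.

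RMA gives every gene a value, and no detection call was made, so a value does not show that a gene is expressed. As a description of brightness, the NS mean of each member can be placed among all gene rows. BIK (6.22) and BCL2L11 (6.36) were brighter than 45.1% and 46.7% of the rows. BMF (6.97) was brighter than 55.4%, BBC3 (7.21) than 59.2%, BAD (8.16) than 73.9%, PMAIP1 (8.36) than 76.7% and BNIP3 (8.42) than 77.7%. BNIP3L (9.45) and BID (10.14) were brighter than 89.4% and 94.4%. Thus 7 of the 9 lay in the brighter part of the array's genes, above the middle row, and BMF was close to the middle. Of neighbours in this order, PMAIP1 and BNIP3 overlapped between their NS arrays. The order is one of probe set brightness and not of RNA amounts.

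**Figure D3:**
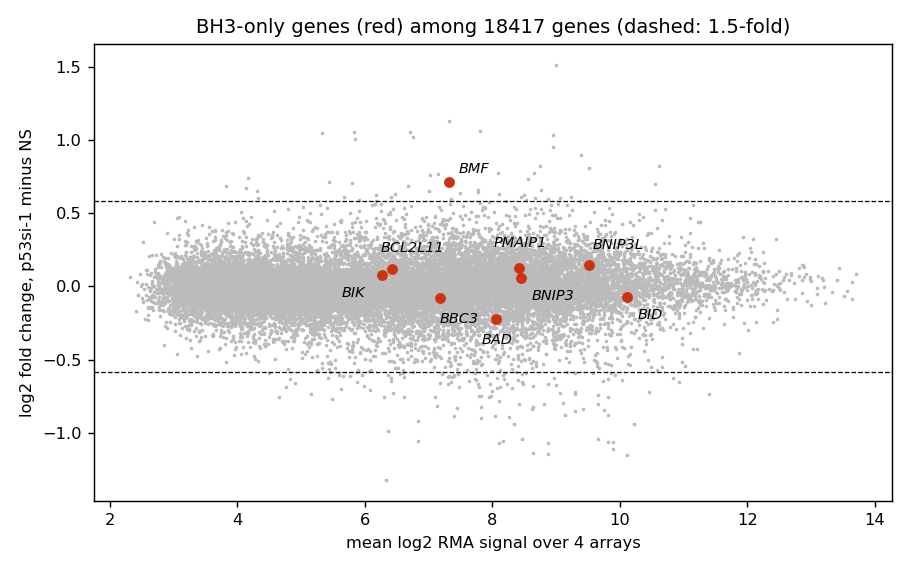
The plot sets the difference of each of the 18417 genes (vertical axis, log2 fold change, p53si-1 minus NS) against the mean of its log2 RMA signals (horizontal axis, all 4 arrays), with the 9 BH3-only genes in red and dashed lines at 1.5-fold. BMF lies above the upper dashed line near the middle of the signal range, and the other 8 red points lie within the grey band, from -0.22 to 0.15.

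Of the 9 genes, 7 have an upstream sequence in the RefSeq table used here, with 13 windows in all, and BIK and BNIP3L were not matched. The GC box occurred upstream of 6 of the 7 (BMF, BCL2L11, PMAIP1, BAD, BID and BNIP3), where 42.64% of all 35116 windows hold it, and the CCAAT box upstream of 5 (BMF, BCL2L11, BBC3, BAD and BNIP3), where 32.01% hold it. The hypoxia core ACGTG occurred upstream of BBC3, BID and BNIP3, with 18.51% of all windows holding it, and GTAAACA upstream of BCL2L11 alone, with 2.98%. The p53 half-site was found upstream of 0 of the 7, with 5.57% of all windows holding it. That search allowed no mismatch to its pattern and covered just the 250 bases before each start. A site elsewhere in a gene, or with a mismatch, would be missed. A gene with several windows has more chances to hold a motif than a single window, and a match gives no more than the letters.

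The 5 genes whose 4 values, taken relative to their NS mean, lay nearest to those of BMF were NPEPPS, ELAPOR1, GCNT2, C2orf15 and POU2F3, at Euclidean distances of 0.0812 to 0.134 on the log2 scale over 4 arrays. NPEPPS, which encodes the puromycin-sensitive aminopeptidase, was 8.40 and 8.47 in NS and 9.08 and 9.11 in p53si-1. POU2F3, a transcription factor of epidermal and tuft cells, was 9.07 and 9.17 in NS and 9.91 and 9.93 in p53si-1. As for BMF, their p53si-1 arrays lay above their NS arrays, and differences ran from 0.65 (ELAPOR1 and GCNT2) to 0.81 (POU2F3). With 4 arrays in 2 groups this likeness mostly says that a gene had the same difference and little spread.

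The genes on either side of BMF on chromosome 15 were less different between the groups, apart from THBS1. The 5 nearest with a row toward lower coordinates and the 5 toward higher coordinates had a median difference of -0.03, and 4 of the 10 were higher and 6 lower by mean. The largest upward one was SRP14, a subunit of the signal recognition particle, at 0.46 (limma adjusted p = 0.176), with 10.51 and 10.37 in NS and 10.80 and 10.99 in p53si-1. THBS1, which encodes the matrix protein thrombospondin 1, fell by 1.06 (limma adjusted p = 0.0484), from 8.62 and 8.77 in NS to 7.55 and 7.73 in p53si-1, and is 1 of the 10 at an adjusted p under 0.05. FSIP1, GPR176, EIF2AK4, BUB1B, PAK6-AS1, PLCB2, CCDC9B and DISP2 ran from -0.15 to 0.08.

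BH3-only proteins work through partners, and the genes of the partners were compared in the same fit. Over all 18417 genes, 8723 were higher and 9693 lower by mean. In each list given below, 0 genes passed an adjusted p of 0.05 in limma, between 0 (further BH3 genes) and 7 (FOXO targets) had an unadjusted p under 0.05, where 12.3% of all genes did, and the median over all genes was -0.0089. Of 5 anti-apoptotic genes, whose proteins are bound by BH3-only proteins, 3 were higher and 2 lower by mean with a median of 0.02. MCL1 was at 0.02, BCL2 at 0.03, BCL2L1 (BCL-XL) at 0.16 with an adjusted p of 0.533, BCL2A1 at -0.22 and BCL2L10 at -0.31. BCL2A1 had an NS mean of 3.89, at the dim end of the table, so little can be read from its difference. The study reports that BCL-2 and BAK protein could not be detected in this line. The MCL1 signal, partner of PMAIP1, was 11.02 and 11.01 in NS and 11.04 and 11.03 in p53si-1. All 3 effectors were lower by mean, with BAK1 at -0.37 (adjusted p = 0.268), BOK at -0.23 and BAX at -0.04. Both p53si-1 arrays lay below both NS arrays for 2 of the 3 (BAK1 and BOK), where 22.6% of all genes did so. Thus none of these 5 anti-apoptotic genes and 3 effectors reached the size of the BMF difference. Of 6 listed anti-apoptotic genes, 1 was not analysed here.

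Of 6 genes of the cytoskeletal anchors, 3 were higher and 3 lower by mean, and the largest differences were those of the motors. MYO5B and MYO5A are heavy chains of myosin V, the class of motor that holds BMF, and which of them does so here was not tested. In NS against p53si-1, MYO5B was 7.55 and 7.47 against 7.01 and 6.81, and MYO5A 6.17 and 6.41 against 5.86 and 5.84. Their differences were -0.60 (adjusted p = 0.0956) and -0.44 (adjusted p = 0.192). Both p53si-1 arrays lay below both NS arrays for these 2 of the 6 genes, where 22.6% of all genes did so. They lay above for 0 of the 6, where 19.9% of all genes did so. DYNLL2, the light chain that binds BMF, was at -0.01 and DYNLL1, the one that binds BIM, at 0.01, and the dynein intermediate chains DYNC1I1 and DYNC1I2 were at 0.08 and 0.10. The median of the 6 was -0.0021.

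Enzymes that modify the BH3-only proteins, and the 14-3-3 proteins that hold BAD, had a median of -0.06 over 26 measured genes, with 8 higher and 18 lower by mean. MAPK8 (JNK1), which phosphorylates BMF and BIM, was 8.13 and 8.43 in NS and 7.60 and 7.80 in p53si-1, a difference of -0.58 (adjusted p = 0.175). CASP2, a protease that can cut BID, was at 0.36 (adjusted p = 0.193), and PPP3CA, a catalytic subunit of calcineurin, which dephosphorylates BAD, at -0.32. The list of apoptosome and caspase genes downstream had a median of 0.09 over 11 genes. It also holds the inhibitors of apoptosis XIAP, BIRC2 and BIRC5 and the channel genes VDAC1 and VDAC2, so its median mixes genes of opposite function. APAF1 was at 0.26, BIRC5 at -0.25 and CASP6 at 0.19. The 7 further BH3 or BH3-like genes had a median of -0.03, and HUWE1, a ubiquitin ligase of MCL1, was at -0.22. PXT1 and BLID, both at -0.12, had NS means of 3.03 and 3.47, at the dim end of the table, so little can be read from their differences.

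Transcription factors that act on BH3-only genes had a median of -0.01 over 18 genes, with EPAS1 at -0.33, SMAD3 at -0.29 and FOXO4 at 0.27 as the largest. Their other targets were read beside the members. FOXO targets, which share their factor with BCL2L11, had the highest median of the lists, 0.12 over 20 genes, with 13 higher and 7 lower by mean. CCNG2, a cyclin of quiescent cells, was at 0.52 (adjusted p = 0.125), CDKN1B, the inhibitor p27, at 0.49 (adjusted p = 0.172) and BCL6 at 0.46 (adjusted p = 0.103), while SOD2 was at -0.41. Both p53si-1 arrays lay above both NS arrays for 8 of the 20 FOXO targets, where 19.9% of all genes did so. They lay below for 4 of the 20, where 22.6% of all genes did so. BMF, at 0.71, exceeded all 20.

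The targets of wild-type p53 other than BBC3 and PMAIP1 had a median of -0.05 over 18 genes. Without overlap, 2 of the 18 lay above (19.9% of all genes) and 8 below (22.6% of all genes). RRM2B, a ribonucleotide reductase subunit, was at -0.55 (adjusted p = 0.0903), the death receptor gene FAS at -0.47 and TP53INP1 at 0.46. Targets of HIF-1, the factor of BNIP3 and BNIP3L, had a median of -0.08 over 17 genes. By mean 14 of the 17 were lower, as were 9693 of all 18417 genes. Both p53si-1 arrays lay above both NS arrays for 1 of the 17 (19.9% of all genes) and below for 8 (22.6% of all genes). P4HA2 was at -0.34 and EGLN3 at -0.33, beside BNIP3 at 0.06 and BNIP3L at 0.15. Targets of ATF4 and CHOP, stress factors that act on PMAIP1 and BBC3, had a median of -0.04 over 14 genes, and SLC7A11, the cystine transporter, was at -0.61 (adjusted p = 0.289), ATF3 at -0.24 and VLDLR at 0.21. Of 15 mitophagy genes the median was -0.02. FUNDC1, a mitophagy receptor beside BNIP3 and BNIP3L, was 8.75 and 8.67 in NS and 7.70 and 7.93 in p53si-1, a difference of -0.89 with an adjusted p of 0.0586, whereas PINK1 was at -0.33 and GABARAP at 0.21.

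Genes of other cell types and common control genes were set beside the BMF difference. GAPDH, ACTB and B2M were at -0.09, -0.07 and 0.05. The summed log2 signals of 9 leukocyte markers were 44.2 and 44.6 in NS and 44.5 and 44.4 in p53si-1, and those of 7 endothelial markers 35.5 and 36.2 in NS and 36.1 and 36.2 in p53si-1. Those of 8 fibroblast markers were 38.9 and 39.6 in NS and 38.2 and 37.8 in p53si-1, the opposite direction to BMF. By mean 6 of the 8 were lower and 2 higher. The lower sum came largely from FAP, a rather dim gene with an NS mean of 5.03, at -0.76 (limma adjusted p = 0.0581). The other fibroblast markers ran from -0.15 (COL1A1) to 0.06 (DCN). Both p53si-1 arrays lay above both NS arrays for 0 of the 9 leukocyte, 2 of the 7 endothelial and 0 of the 8 fibroblast markers, and below them for 0, 2 and 4, where 19.9% of all genes lay above and 22.6% below. KDR, the endothelial marker with the largest difference, was 8.36 and 8.73 in NS and 8.91 and 9.18 in p53si-1, a difference of 0.50 in the direction of BMF (limma adjusted p = 0.275). The defining markers PTPRC, DCN and PECAM1 had NS means of 3.09, 3.26 and 4.32 and so lay at the dim end of the table, whereas CD14 (9.82) and KDR (8.54) were bright in this line. Their part in the BMF difference was not tested.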

How the data were processed

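RNA from MDA-MB-468 cells was hybridized to 4 Affymetrix Human Gene 1.0 ST arrays, 2 NS and 2 p53si-1, grouped by the titles in the labels. GCOS, Affymetrix Expression Console and RMA are named in the submitters' processing notes, and the authors deposited the summarized signal of every transcript cluster on each array. Their table does not state its scale. The deposited values reach at most 14.3, with nearly equal array medians, and were taken as log2 signals. RMA equalizes the arrays' distributions, so a shift of most transcripts would be removed, and it can understate changes of dim probes. No further normalization or filter was applied. Of 33297 clusters, 19460 carry a single symbol in the annotation of the platform, 1754 carry several and 12083 have no name here, and each of 18417 genes was given its cluster with the highest mean signal. Symbols were checked by Entrez number against RefSeq on GRCh38.p14 (19429 matched, 0 changed), and 1 or more genes of some lists are not analysed here.

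Differences of group means were tested with limma 3.58.1 in R 4.3.3 by lmFit and eBayes, which had 4.20 prior and 2 residual degrees of freedom. Adjustment was by Benjamini-Hochberg across the 18417 genes. The 1.5-fold criterion is that of the study. The p-values rest on each gene's spread between these arrays, drawn toward a prior variance estimated from all genes. The number of arrays limits the precision. Members, lists, tests and the rule on which genes to name were chosen with earlier results of these data known. Named were all members, partner genes (anti-apoptotic genes, effectors, anchors and controls), up to 3 genes per other list with the largest change together with any past a threshold, 5 neighbours on each side of BMF and the 5 genes most like it. Identity and brightness of cell types were read from fixed marker lists. Upstream windows of 250 bases were taken from RefSeq and searched on both strands, and the p53 half-site was searched in its degenerate form. A planned search of the proteins for the BH3 core was not run, since no protein table was used here. The fit was tested on simulated data. Alternatives changed the cluster per gene, normalization, filter, prior variance, replicate block, arrays and fold criterion.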

Additional observations from a re-analysis of the deposited data

How the results depend on the processing

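The BMF difference stayed upward under all 11 alternatives to its fit, between 0.66 and 0.77, with limma adjusted p-values from 0.0233 to 0.263. It passed an adjusted p of 0.05 with arrays centred on their medians (0.72, adjusted p = 0.0365), with dim genes left out (0.71, adjusted p = 0.0398) and with a prior variance by signal (0.71, adjusted p = 0.0233), and in each of these the number of BH3-only genes past that threshold was 1 instead of 0. Quantile normalization gave 0.0508. Leaving out each array in turn gave 0.66 to 0.77 with adjusted p-values from 0.122 to 0.263; the lone array was then assumed to vary like the other group. With over 2-fold as the criterion 0 of the 9 genes were higher, and with over 1.3-fold 1 was. Signs turned for BNIP3 without NS replicate 1 (-0.026) and without p53si-1 replicate 2 (-0.050; range over the 4 arrays left out -0.050 to 0.17), for BBC3 without NS replicate 2 (0.065; range -0.22 to 0.065) and for BIK without p53si-1 replicate 2 (-0.020; range -0.020 to 0.18), and the cause was not tested.

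The experiments are described as independent, and no source says whether a replicate number marks a shared culture or day, so a pairing of the arrays is not established. Same-numbered arrays deviated together with a correlation of 0.242 across genes. With the replicate number as a block the BMF difference was 0.71 with an adjusted p of 0.0607, and over all genes 12 passed 0.05 instead of 20. That count was 28 with the mean of all clusters or quantile normalization, 4 with every cluster as its own row, 62 with centred arrays, 89 without dim genes, 149 with a prior variance by signal, and 0 or 1 without an array. Of 594 counts for the partner and marker lists, 17 moved, 6 of them counts at an adjusted p under 0.05 that went from 0 to 1 (mitophagy, fibroblast and FOXO lists) under centring, the filter on dim genes or the prior variance.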
